A study of Mus musculus with 20 samples.

Results

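The expression of 10 genes for Fc, scavenger and efferocytosis receptors was described in visceral adipose tissue of mice: Fcgr1, Fcgr2b, Fcgr3, Fcer1g, Msr1, Marco, Clec7a, Axl, Mertk and Mfge8. They were chosen by name, with earlier results of these data known. They are 10 of the 37,074 gene names on the array, read by 15 of its 56,605 probes. Epididymal adipose tissue of 20 male C57bl/6J mice of the F3 generation was measured, with 1 microarray of 1 colour per mouse. The 6 Ref mice (STD Cont) were of the control lineage, whose growing diet was supplemented with a sunflower oil rich in oleic acid, and were fed a low-fat diet during the challenge. The 6 HFoleic mice (HFD Cont) were of the same lineage and were fed a high-fat, high-sucrose diet. The 8 HFepa mice (HFD O3) received that obesogenic diet too, but came from the omega 3 lineage, in which fish oil rich in eicosapentaenoic acid (EPA) replaced the sunflower oil for all 3 generations. Mice of the omega 3 lineage on the low-fat diet were not analysed here, so the comparisons of HFepa with Ref differ in lineage and in diet. The ages of the mice are not in the labels, and whether mice shared a litter is not stated in the sources used here.

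These genes act where phagocytes recognise what they engulf. Fc gamma receptors bind the constant part of IgG on coated particles and immune complexes, and the activating ones signal through the ITAM of the Fc receptor gamma chain, which recruits the kinase Syk. Scavenger receptors bind modified lipoproteins and microbial surfaces. Efferocytosis is the uptake of dying cells, for which TAM receptor kinases and bridging molecules recognise phosphatidylserine on the dying cell. In obese adipose tissue, macrophages gather around dying adipocytes in structures known as crown-like structures.

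Values are log2 intensities after quantile normalization. A gene with several probes is given by its brightest tested probe, and levels are not comparable between probes. Groups were compared with the moderated test of limma in a model with 1 mean per group. Adjusted p values follow Benjamini and Hochberg over the 39,390 tested probes, and a difference is called when its adjusted p is below 0.05. The software rated 14 of the 15 probes well above background on every array, and the dim second probe of Clec7a on 19 of 20. Per array, 66.1% to 71.9% of spots were rated so. The tissue label was checked with marker genes. All 6 adipocyte and all 9 macrophage markers were well above background on every array. Of the epididymis and testis markers, 3 of 6 and 4 of 6 were bright enough to be tested. All 6 liver markers were tested too, and 3 of them were well above background on every array.

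In HFoleic vs. Ref, 8 of the 10 genes were called, all of them higher in the HFoleic group, while 31.8% of all 25,618 tested genes were called in either direction. The median log2 fold change of the 10 genes was 1.15, beside -0.04 over all genes. The exceptions were Axl and Mertk. For 6 genes (Fcgr1, Fcgr3, Fcer1g, Msr1, Clec7a and Mfge8) every HFoleic mouse was above every Ref mouse, and the groups did not overlap in either direction for 14% of all genes. In HFepa vs. Ref, Mfge8 was called, as were 2.46% of all genes, and it was also the only one of the 10 without overlap between these groups, against 1.04% of all genes. The median log2 fold change of the 10 genes was 0.59 there, and 9 of 10 were positive. In HFepa vs. HFoleic none of the 10 was called and 0% of all genes were, none of the 10 was free of overlap (0.355% of all genes were), and the median log2 fold change was -0.63, with Mertk as the only positive value. Before adjustment, 6 of the 10 genes had a p below 0.05 in this comparison (Fcgr1, Fcgr3, Fcer1g, Msr1, Clec7a and Mfge8, all lower in the HFepa group), as did 20.8% of all genes. The Ref arrays enter both comparisons with the Ref group and the HFoleic arrays enter 2 of the 3 comparisons, so the 3 are not independent. Because the 10 genes were chosen with earlier results known, the shares of all genes beside them are a scale and not a test.

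**Figure D1:**
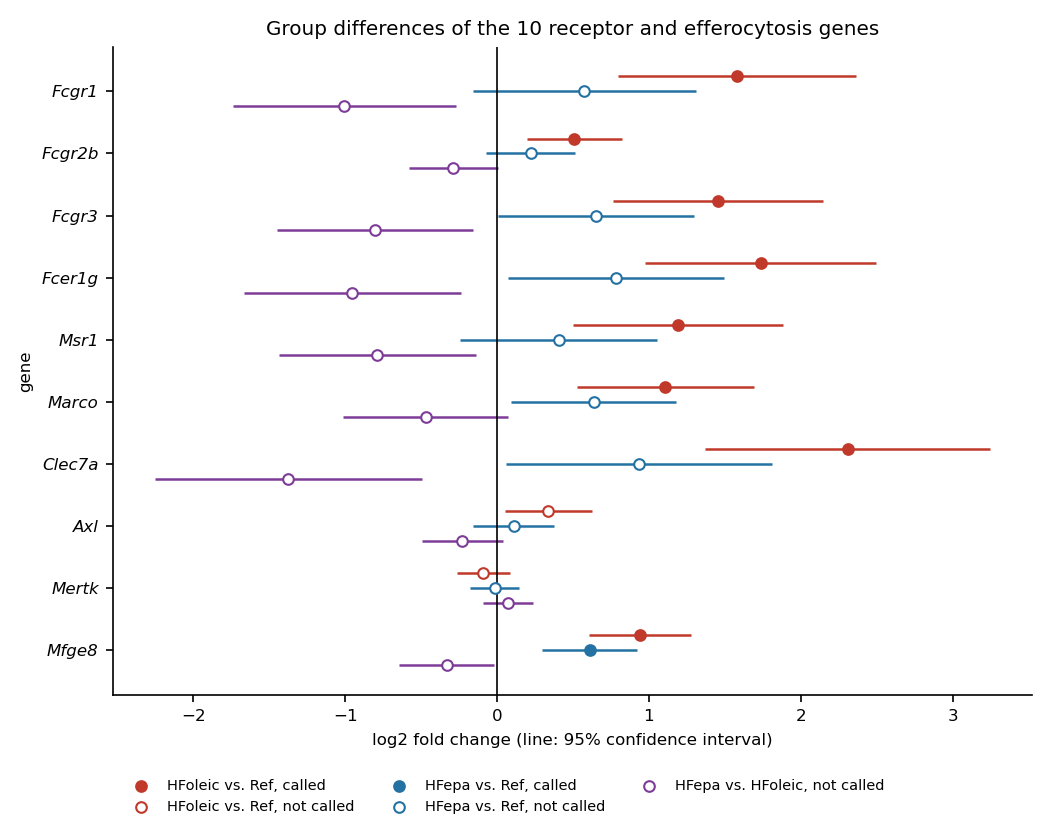
Log2 fold changes of the 10 genes in the 3 comparisons, with 95% confidence intervals, filled where the adjusted p was below 0.05. In HFoleic vs. Ref, 8 genes are filled and lie between 0.51 and 2.31, in HFepa vs. Ref the filled point is Mfge8 at 0.61, and in HFepa vs. HFoleic none is filled.

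The windows before the start sites of these genes are shown because 8 of them moved together in the HFoleic group. RefSeq promoter windows of GRCm38.p6, from 250 bases before to 50 bases after the start site, were found for 9 of the 10 genes. The 6 letters GAGGAA, the core bound by the myeloid factor PU.1, were searched on both strands. They were present in the windows of 6 of these 9 genes (Fcgr1, Fcgr3, Marco, Clec7a, Axl and Mfge8) and in those of 31.3% of 27,025 genes, where a gene with several windows counts once if any of them holds the letters. The longer form GAGGAAGT, which contains the core, was in none of the 9 genes and in 3.69% of all genes. The AP-1 site TGANTCA was in none of the 9 and in 8.97% of all genes, and the LXR direct repeat in none of the 9 and in 0.0148%. A match is a description of the letters and not evidence of binding. The 250 bases before the start site are given below in the sense of the gene for Fcgr1 (chr3:96293970-96294219, minus strand), Fcgr3 (chr1:171059395-171059644, minus strand), Clec7a (chr6:129472780-129473029, minus strand) and Mertk (chr2:128698665-128698914, plus strand), with the core or its reverse complement TTCCTC in capitals. Where RefSeq lists several start sites, 1 window is shown. Fcer1g and Fcgr2b were called higher in the HFoleic group and have none of these letters in their windows. Mertk, which was not called, has none either. Axl has them at position -130, and its call depended on the probe. Whether PU.1 acts on these genes was not tested.
Fcgr1: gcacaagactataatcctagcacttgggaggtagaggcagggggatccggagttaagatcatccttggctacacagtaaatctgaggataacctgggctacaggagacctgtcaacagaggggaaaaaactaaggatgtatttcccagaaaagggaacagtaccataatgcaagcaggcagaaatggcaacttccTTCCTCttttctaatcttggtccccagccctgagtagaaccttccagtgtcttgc
Fcgr3: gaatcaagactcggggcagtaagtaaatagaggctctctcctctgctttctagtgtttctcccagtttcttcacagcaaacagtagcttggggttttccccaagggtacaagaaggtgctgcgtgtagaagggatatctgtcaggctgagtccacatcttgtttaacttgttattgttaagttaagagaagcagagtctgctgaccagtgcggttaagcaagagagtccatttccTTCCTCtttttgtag
Clec7a: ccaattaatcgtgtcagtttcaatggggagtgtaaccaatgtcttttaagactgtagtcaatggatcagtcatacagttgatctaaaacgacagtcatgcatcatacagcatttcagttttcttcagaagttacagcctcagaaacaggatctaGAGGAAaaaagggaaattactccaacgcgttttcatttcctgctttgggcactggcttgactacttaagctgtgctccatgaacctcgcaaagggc
Mertk: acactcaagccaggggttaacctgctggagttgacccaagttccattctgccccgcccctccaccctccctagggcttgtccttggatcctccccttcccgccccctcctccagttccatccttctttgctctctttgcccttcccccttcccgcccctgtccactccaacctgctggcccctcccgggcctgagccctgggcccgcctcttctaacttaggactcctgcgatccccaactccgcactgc
The core began at position -55 from the start site in Fcgr1, at -15 in Fcgr3 and at -96 in Clec7a.

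Among the Fc receptors, Fcgr1 encodes the activating receptor with high affinity for IgG. Its probe (NM_010186) lies on chromosome 3 from 96088462 to 96088521 on the minus strand of mm9, the build of the file annotation. This probe was dim, with signals before normalization of 84 to 746 and no background subtracted. Its level was 6.86, 7.01 and 7.57 in the Ref group, given as the lowest, median and highest mouse. It was 7.64, 8.62 and 9.45 in the HFoleic group and 6.58, 7.31 and 9.08 in the HFepa group. All HFoleic mice were above all Ref mice, while 3 of the 8 HFepa mice were. Fcgr1 rose by 1.58 on the log2 scale in HFoleic vs. Ref (adjusted p = 0.00394, standard error 0.38), which is a fold of 2.99. It was 0.58 in HFepa vs. Ref (adjusted p = 0.370) and -1.01 in HFepa vs. HFoleic, with a 95% confidence interval of -1.74 to -0.27 (adjusted p = 0.140).

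Fcgr3 encodes an activating receptor of low affinity, and its neighbour Fcgr2b on chromosome 1 encodes the inhibitory receptor, which carries an ITIM in place of an ITAM. The extracellular parts of these receptors are similar. Probes of 60 bases each are shown, and which part of a receptor each one reads was not examined. Those given for Fcgr1 and for the second probes of Fcgr2b (172895833 to 172895892) and Fcgr3 (172984129 to 172984188) are as follows, without capitals because no part is singled out.
Fcgr1: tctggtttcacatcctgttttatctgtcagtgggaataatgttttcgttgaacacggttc
Fcgr2b: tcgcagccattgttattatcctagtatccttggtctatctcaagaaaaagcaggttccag
Fcgr3: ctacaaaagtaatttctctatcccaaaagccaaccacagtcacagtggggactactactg
Over all 15 probes, the longest run shared by probes of different genes of the 10 was 10 bases, between Axl and Clec7a. Probes were compared with each other and not with the transcripts of the other genes. Whether a probe also reads the RNA of a related receptor was therefore not tested. The brightest Fcgr3 probe lies on the same chromosome from 172981647 to 172981722. Fcgr3 was at 10.52, 11.24 and 11.40 (lowest, median and highest) in the Ref group, 11.82, 12.73 and 13.04 in the HFoleic group and 10.68, 11.56 and 13.17 in the HFepa group. The HFoleic and Ref mice did not overlap, and 6 of 8 HFepa mice were above all Ref mice. Its log2 fold change in HFoleic vs. Ref was 1.46 (standard error 0.33, adjusted p = 0.00300), and its second probe gave 1.59 (adjusted p = 0.00193). The HFepa group was higher than the Ref group by 0.65 (adjusted p = 0.236) and differed from the HFoleic group by -0.80 (adjusted p = 0.162).

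Fcgr2b had a smaller log2 fold change in HFoleic vs. Ref than the activating receptors. Its brightest probe lies on chromosome 1 from 172890988 to 172891047. It was at 10.32, 10.57 and 10.88 in the Ref group, 10.77, 11.18 and 11.44 in the HFoleic group and 10.26, 10.95 and 11.13 in the HFepa group. The groups overlapped, with 4 of 6 HFoleic mice and 5 of 8 HFepa mice above all Ref mice. The log2 fold change in HFoleic vs. Ref was 0.51 (95% confidence interval 0.20 to 0.82, adjusted p = 0.0139). The value of 0.51 lay below the lower ends of the intervals of Fcgr1 (0.80), Fcgr3 (0.76) and Fcer1g (0.97). These intervals belong to different genes measured in the same mice, and the difference between genes was not tested. The second Fcgr2b probe had 0.68 (adjusted p = 0.00739) without overlap. For the HFepa group against the Ref and HFoleic groups Fcgr2b had 0.22 (adjusted p = 0.387) and -0.29 (adjusted p = 0.249).

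Fcer1g encodes the Fc receptor gamma chain, the ITAM adaptor through which Fcgr1 and Fcgr3 signal. Its probe lies on chromosome 1 from 173159794 to 173159853. It was at 11.13, 11.48 and 11.61 in the Ref group, 12.12, 13.24 and 13.94 in the HFoleic group and 11.28, 11.96 and 13.82 in the HFepa group. Every HFoleic mouse was above every Ref mouse, and 6 of 8 HFepa mice were. The log2 level of Fcer1g rose by 1.74 between the Ref and HFoleic groups (adjusted p = 0.00184, standard error 0.36), a fold of 3.33. It was 0.78 in HFepa vs. Ref (adjusted p = 0.196) and -0.95 in HFepa vs. HFoleic (95% confidence interval -1.66 to -0.24, adjusted p = 0.145).

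**Figure D2:**
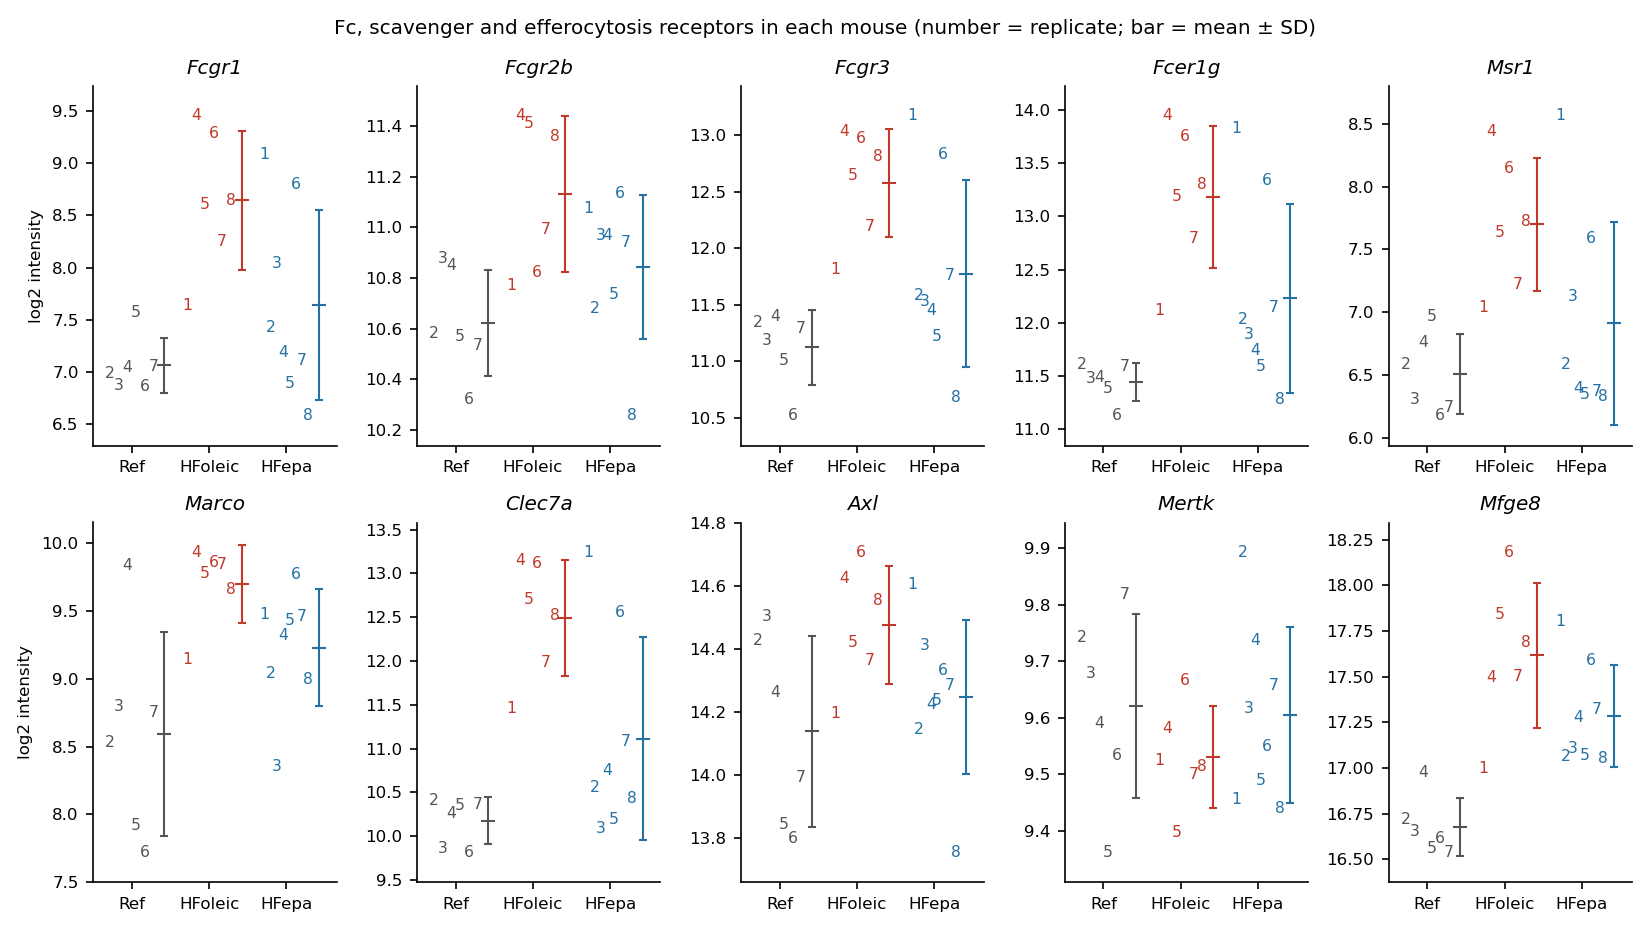
Log2 intensity of the 10 genes in each mouse, drawn as its replicate number, with the mean and SD of the 6 Ref, 6 HFoleic and 8 HFepa mice beside them. The axes differ between genes. HFepa mice 1 and 6 lie among the HFoleic mice in most panels, and the 8 HFepa mice are all above the Ref mice for Mfge8.

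Of the scavenger and lectin receptors, Clec7a showed the largest log2 fold change of the 10 genes in HFoleic vs. Ref. It encodes Dectin-1, a C-type lectin that binds beta-glucans and signals through Syk and Card9. Its probe lies on chromosome 6 from 129411739 to 129411798. Its level was 9.81, 10.31 and 10.41 in the Ref group (lowest, median and highest), 11.45, 12.61 and 13.14 in the HFoleic group and 10.09, 10.65 and 13.24 in the HFepa group. The HFoleic and Ref mice did not overlap, and 6 of 8 HFepa mice were above all Ref mice. The log2 fold change was 2.31 in HFoleic vs. Ref (adjusted p = 0.00120, standard error 0.45), a fold of 4.96 with a 95% confidence interval of 2.59 to 9.50. It was 0.94 in HFepa vs. Ref (adjusted p = 0.212) and -1.37 in HFepa vs. HFoleic (95% confidence interval -2.25 to -0.50, adjusted p = 0.126). The second probe, whose signal before normalization was 45 to 157.5 against 845 to 10904 for the first, gave a smaller log2 fold change in HFoleic vs. Ref, 0.98 (adjusted p = 0.00310), also without overlap. No background was subtracted from these signals.

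Msr1 encodes the class A scavenger receptor that takes up modified low-density lipoprotein, and its brightest probe lies on chromosome 8 from 40689158 to 40689217. It was at 6.17, 6.45 and 6.97 in the Ref group, 7.04, 7.68 and 8.44 in the HFoleic group and 6.33, 6.49 and 8.56 in the HFepa group. All HFoleic mice were above all Ref mice, by a small margin at the closest pair, and 5 of 8 HFepa mice were within the range of the Ref mice. Msr1 had a log2 fold change in HFoleic vs. Ref of 1.19 (standard error 0.33, adjusted p = 0.01004), and 0.87 for the second probe (adjusted p = 0.0128). Msr1 had 0.41 in HFepa vs. Ref (adjusted p = 0.490) and -0.79 in HFepa vs. HFoleic (adjusted p = 0.168).

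Marco encodes a class A scavenger receptor with a collagenous domain, known for the uptake of bacteria and particles. It was at 7.72, 8.64 and 9.83 in the Ref group, 9.14, 9.81 and 9.93 in the HFoleic group and 8.35, 9.38 and 9.77 in the HFepa group. Here the Ref group was the most spread, since Ref mouse 4 at 9.83 lay among the HFoleic mice, and the groups overlapped. The log2 level of Marco rose by 1.11 between the Ref and HFoleic groups (adjusted p = 0.00559, standard error 0.28). All 8 HFepa mice were inside the range of the Ref mice, with 0.64 in HFepa vs. Ref (adjusted p = 0.172) and -0.47 in HFepa vs. HFoleic (adjusted p = 0.313).

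The efferocytosis genes did not move alike. Mfge8 encodes a secreted protein that bridges phosphatidylserine on dying cells to integrins on the phagocyte. Its probe (NM_008594) lies on chromosome 7 from 86278689 to 86278748. It was at 16.54, 16.63 and 16.97 in the Ref group, 16.996, 17.59 and 18.18 in the HFoleic group and 17.05, 17.19 and 17.80 in the HFepa group. All 14 mice on the obesogenic diet were above all Ref mice, although HFoleic mouse 1 only just, and all 8 HFepa mice lay within the range of the HFoleic mice. The log2 fold change was 0.94 in HFoleic vs. Ref (adjusted p = 0.000578, standard error 0.16), a fold of 1.92. Between the HFepa and Ref groups it was 0.61 (standard error 0.15, adjusted p = 0.0394), a fold of 1.53. This call was close to the threshold: with the slide as a block the log2 fold change was 0.61 and the adjusted p 0.0533, and the adjusted p was above 0.05 in 10 of the 20 fits that left out 1 array each. On each of the 3 slides the HFepa mean was above the Ref mean, by 0.42 to 0.76. In HFepa vs. HFoleic the log2 fold change was -0.33 (95% confidence interval -0.64 to -0.02, adjusted p = 0.218).

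Axl and Mertk encode receptor tyrosine kinases of the TAM family, which bind Gas6 and Pros1 on phosphatidylserine. Their brightest probes lie on chromosome 7 from 26542335 to 26542394 and on chromosome 2 from 128627867 to 128627926. Axl was at 13.80, 14.13 and 14.50 in the Ref group, 14.19, 14.49 and 14.71 in the HFoleic group and 13.76, 14.26 and 14.60 in the HFepa group. The groups overlapped, and the log2 fold change in HFoleic vs. Ref was 0.34 (standard error 0.14, adjusted p = 0.0675). The dim second probe (26545782 to 26545841 on chromosome 7) was called in that comparison, by 0.42 on the log2 scale (adjusted p = 0.00279, standard error 0.10) and without overlap, so the call for Axl depended on the probe. The brightest probe had 0.11 in HFepa vs. Ref (adjusted p = 0.675) and -0.23 in HFepa vs. HFoleic (adjusted p = 0.322).

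Mertk was at 9.36, 9.63 and 9.82 in the Ref group, 9.40, 9.52 and 9.67 in the HFoleic group and 9.44, 9.58 and 9.89 in the HFepa group. These ranges overlapped almost fully. The log2 fold change was -0.09 in HFoleic vs. Ref (95% confidence interval -0.26 to 0.08, adjusted p = 0.448), -0.02 in HFepa vs. Ref (-0.18 to 0.15, adjusted p = 0.931) and 0.07 in HFepa vs. HFoleic (-0.09 to 0.24, adjusted p = 0.634). With median centring in place of quantile normalization the value in HFepa vs. Ref turned to 0.000568.

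Most of the genes shared a ranking of the mice. Among the HFepa mice, mouse 1 was the highest for 7 of the 10 genes and mouse 6 was 1 of the top 2 for 8 of the 10 genes, while mouse 8 was the lowest for 8. Clec7a, for example, was at 13.24 in HFepa mouse 1 and 12.56 in mouse 6, against 10.09 to 11.08 in the other 6 mice. HFoleic mouse 1 was the lowest of its group for 9 of the 10 genes, and HFoleic mice 4 and 6 were each in the top 2 for 9. Ref mouse 6 was the lowest of its group for 8 genes. These counts describe genes measured on the same arrays and are not independent of each other. The calls in HFepa vs. HFoleic depended on single mice. Without HFepa mouse 1, Fcgr1, Fcgr3, Fcer1g, Msr1 and Clec7a were called, all lower in the HFepa group, with log2 fold changes from -1.68 for Clec7a (adjusted p = 0.0271) to -1.001 for Fcgr3 (adjusted p = 0.0335). Without HFoleic mouse 1, Clec7a was called (-1.58, adjusted p = 0.0470). The share of all genes called in these fits is not given here, so the calls cannot be set against it. Without HFepa mouse 1, 16 of the 70 other pathway genes described below were called too. Leaving out any of the other 18 mice, HFepa mice 6 and 8 included, gave 0 calls among the 10 genes.

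**Figure D3:**
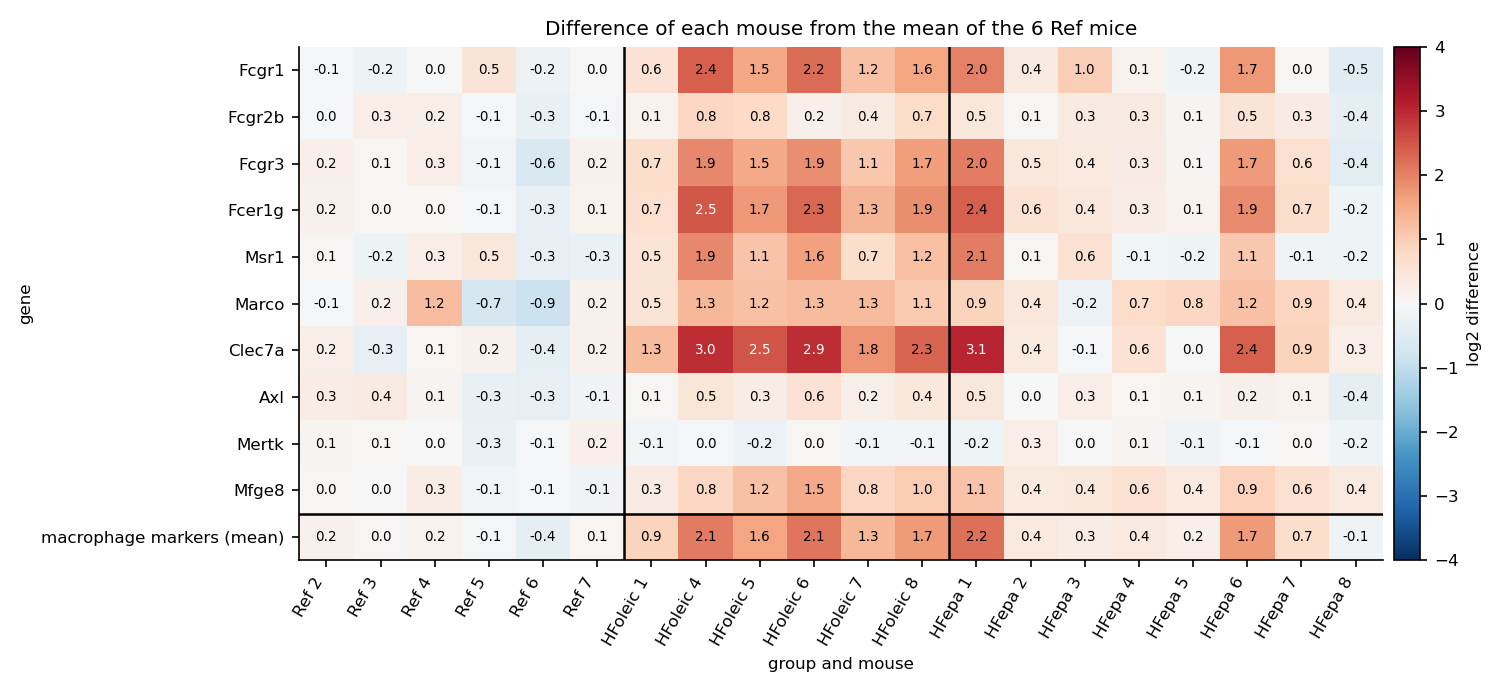
Difference of each mouse from the mean of the 6 Ref mice, in log2 units, for the 10 genes and for the mean of 9 macrophage markers below the line. The columns of HFepa mice 1 and 6 are coloured like those of the HFoleic mice, HFoleic mouse 1 is paler than the rest of its group, and the row of Mertk is pale throughout.

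Markers of macrophages moved with the genes called in HFoleic vs. Ref, but Mertk did not rise with them. All 9 markers of the list, among them Adgre1, Csf1r, Lyz2, Ctss and Aif1, were called higher in HFoleic vs. Ref, with log2 fold changes from 0.87 for Aif1 to 3.03 for Ctss. None of the 9 was called in HFepa vs. Ref (median log2 fold change 0.64) or in HFepa vs. HFoleic (median -0.87). The mean of the 9 markers was between 11.37 and 11.93 in the Ref mice, between 12.64 and 13.89 in the HFoleic mice and between 11.62 and 13.94 in the HFepa mice. HFepa mouse 1 was at 13.94 and mouse 6 at 13.45, and the other 6 HFepa mice were at 12.44 or less. In bulk tissue, more macrophages and more RNA per macrophage cannot be told apart.

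Other cell types were covered by short marker lists. In HFoleic vs. Ref, Itgax, Flt3, Clec9a and Ccr7 of the 5 tested dendritic cell markers were called higher (Itgax by 3.16, which macrophages of obese adipose tissue express too) and Zbtb46 was called lower. Among 6 neutrophil markers S100a8 was called higher (2.46), but the median of that list was -0.24 and 2 of the 6 values were positive. Called higher were also Gzma and Ncr1 among 5 NK cell markers, and the collagen gene Col1a1 and Lum among 6 progenitor and fibroblast markers. Ncr1 had low levels, with means of 5.57 in the Ref and 5.81 in the HFoleic group. The fibroblast list had a median of 0.28 with 4 of 6 values positive, while Pdgfra had -0.05 and Dcn -0.07. Of all tested genes, 31.8% were called in this comparison in either direction. Lipe, the hormone-sensitive lipase, was called lower among 6 adipocyte markers, Kit among 5 mast cell markers and Tnp2 among 4 testis markers. None of the B cell, T cell, endothelial, mesothelial, epididymis and liver markers was called. None of the markers of these lists was called in HFepa vs. Ref or in HFepa vs. HFoleic. The part of these cell types in the results on the 10 genes was not tested.

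The 10 genes were also compared after the mean of the 9 macrophage markers was subtracted from every probe of the same array. Because the subtracted markers rose, 97.4% of all genes were then called in HFoleic vs. Ref, so a call there says only that a gene and the markers differed in their change. Of the 10 genes, 5 were called in this way. Mertk (-1.71, adjusted p = 7.01e-05), Axl (-1.28, adjusted p = 0.000401), Fcgr2b (-1.11, adjusted p = 0.00190) and Mfge8 (-0.68, adjusted p = 0.0383) were lower relative to the markers. Clec7a was higher by 0.69 (adjusted p = 0.0276), but its dim second probe was lower by -0.63 (adjusted p = 0.0375), so the direction for Clec7a depended on the probe. Fcgr1, Fcgr3, Fcer1g, Msr1 and Marco were not called. The 95% confidence interval of Fcer1g was -0.45 to 0.69 and that of Fcgr1 -0.65 to 0.58. The moderated test draws the spread of each gene towards that of all genes, which here share the variation of the subtracted mean. Fcer1g had a standard error of 0.283, although its difference from the markers had SDs of 0.065 (Ref), 0.209 (HFoleic) and 0.125 (HFepa). These missing calls are therefore not evidence that a gene and the markers changed alike. The second Msr1 probe was called lower relative to the markers (-0.75, adjusted p = 0.0149), so the call for Msr1 depended on the probe too. Both Msr1 probes were dim, with signals before normalization of 47 to 213 for the second and 70 to 364 for the first. No background was subtracted from them. Over 33 alternative settings, the call of Mfge8 was lost in 10 (adjusted p up to 0.164) and that of Clec7a in 6 (adjusted p up to 0.603).

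Clec7a minus the marker mean was between -1.92 and -1.31 in the Ref mice, between -1.18 and -0.63 in the HFoleic mice and between -1.94 and -0.70 in the HFepa mice. For Fcer1g the same difference was between -0.42 and -0.23, between -0.52 and 0.12, and between -0.40 and -0.10. Fcer1g thus stayed within a narrow band of the marker mean in all 20 mice. In HFepa vs. Ref none of the 10 genes was called relative to the markers and 0% of all genes were. Of the 10 genes, Mertk had an unadjusted p of 0.0340 there (-0.73, adjusted p = 0.0739), and the second Msr1 probe had 0.0355 (adjusted p = 0.0740). The share of all genes with such an unadjusted p is not given here, so these values do not set Mertk apart. In HFepa vs. HFoleic, where 88.4% of all genes were called, Mertk (0.97, adjusted p = 0.0206) and Axl (0.67, adjusted p = 0.0391) were called higher relative to the markers. The call of Axl was lost in 13 of the 33 settings (adjusted p up to 0.176) and that of Mertk in 3 (adjusted p up to 0.0770).

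**Figure D4:**
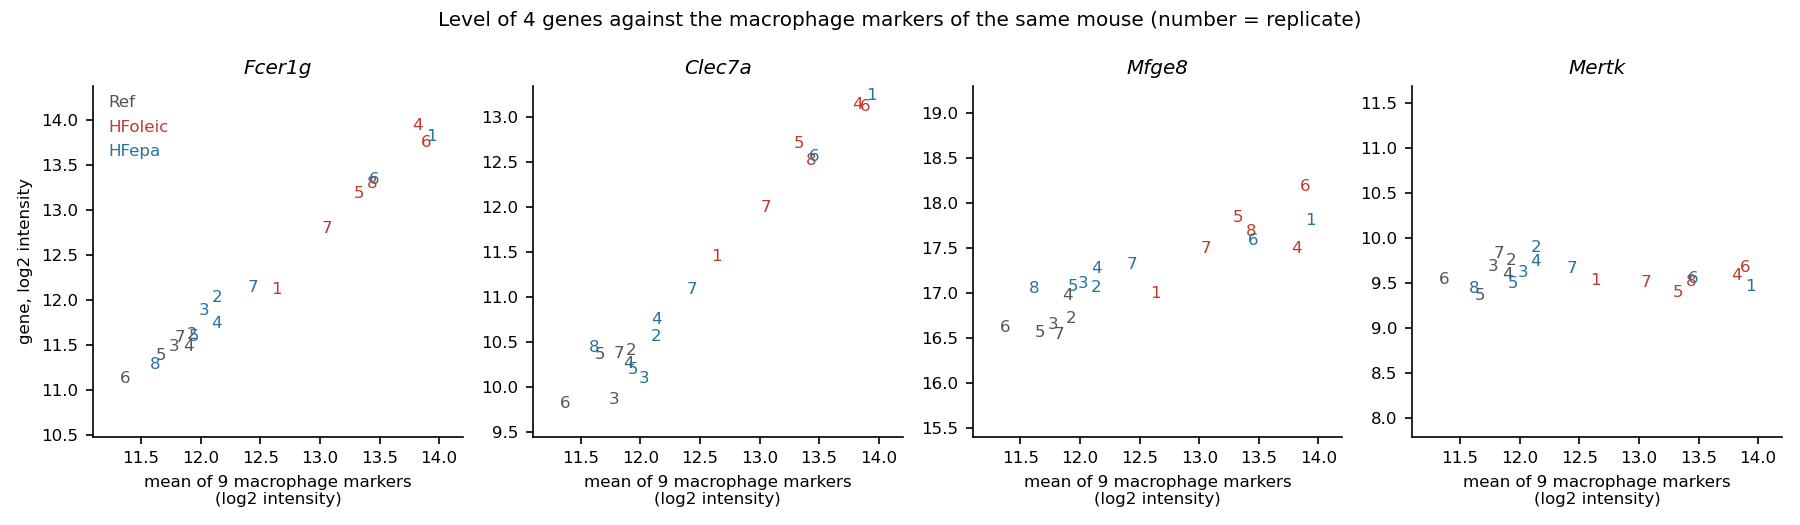
Log2 intensity of Fcer1g, Clec7a, Mfge8 and Mertk against the mean log2 intensity of 9 macrophage markers in the same mouse, with all vertical axes 3.9 units high and mice drawn as replicate numbers. Fcer1g and Clec7a rise with the markers in all groups, Mfge8 rises less, and Mertk stays between 9.36 and 9.89.

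Within the 3 slides, which each held arrays of all groups, all 8 genes called in HFoleic vs. Ref were higher in the HFoleic than in the Ref mice on 3 of 3 slides. For Clec7a the difference on a slide was between 2.23 and 2.78, for Fcer1g between 1.51 and 2.46 and for Fcgr2b between 0.25 and 0.89. Slide 2 held 1 HFoleic array. With the slide as a block, the same 8 genes were called in HFoleic vs. Ref. In HFepa vs. HFoleic the adjusted p of Clec7a was then 0.0670 and that of Fcgr1 0.0843.

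Of 71 other genes of these pathways, in 5 lists, 70 were tested, all but Havcr1. In HFoleic vs. Ref, 33 were called higher and 5 lower, with a median log2 fold change of 0.29. Over all tested genes, 15.2% were called higher and 16.7% lower. The lists were also chosen with earlier results of these data known, so these shares are no test of them. The ITAM and lectin signalling list had 13 of 15 genes called higher. Vav3, a guanine nucleotide exchange factor, rose by 0.81 (standard error 0.14, adjusted p = 0.000658), Lyn, a Src family kinase, by 0.78 (standard error 0.14, adjusted p = 0.000820), and Tyrobp, the ITAM adaptor DAP12, by 2.33 (standard error 0.46, adjusted p = 0.00138). Syk, the kinase that binds phosphorylated ITAMs, rose by 1.48 (adjusted p = 0.00139). The 2 genes not called were Card9 and Ptpn11, the phosphatase SHP-2, with 0.10 and 0.09. Inpp5d and Ptpn6, the phosphatases SHIP1 and SHP-1 of inhibitory receptors, rose by 0.99 and 1.34.

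Of 6 other Fc receptor genes, Fcgr4, a further activating IgG receptor, was called (1.44, standard error 0.40, adjusted p = 0.00930). Fcer2a, the low-affinity IgE receptor, and Fcmr, the IgM receptor, had -0.34 (adjusted p = 0.0710) and -0.55 (adjusted p = 0.0949). Of 15 other scavenger receptors, 5 were called higher and 2 lower. Cd68, a lysosomal protein of macrophages, rose by 2.41 (standard error 0.49, adjusted p = 0.00158), Olr1, a receptor for oxidised low-density lipoprotein, by 0.79 (adjusted p = 0.00174) and Mrc1, the mannose receptor, by 0.76 (adjusted p = 0.00335). Cd163, the haemoglobin scavenger receptor, fell by 0.54 (adjusted p = 0.0239), and Colec12 fell by 0.24 (adjusted p = 0.0326). Of 8 other C-type lectin receptors, 4 were called higher, among them Clec12a (2.06, adjusted p = 0.00259), Clec4d (2.50, adjusted p = 0.00389) and Clec10a (0.59, adjusted p = 0.0101).

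Of 26 tested genes of efferocytosis, 10 were called higher and 3 lower. Gulp1, an engulfment adaptor, fell by 0.96 (standard error 0.19, adjusted p = 0.00121). Elmo1, which activates Rac1 during engulfment, rose by 0.49 (adjusted p = 0.00298), and Adam10, a membrane protease, rose by 0.31 (adjusted p = 0.00354). The other genes called lower were Cd300lf, a phosphatidylserine receptor, and Thbs1, with -1.35 (adjusted p = 0.00355) and -1.08 (adjusted p = 0.0438). Of the TAM ligands, Pros1 rose by 0.42 (adjusted p = 0.00409) and Gas6 had 0.07 (adjusted p = 0.764), while Tyro3, the other receptor of that family, had 0.22 (adjusted p = 0.355). The complement genes C1qa, C1qb and C1qc, whose product opsonizes dying cells, rose by 1.13, 1.37 and 0.79.

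In HFepa vs. Ref, 2 of the 70 genes were called, Vav3 (0.58, standard error 0.13, adjusted p = 0.0304) and Lyn (0.51, standard error 0.13, adjusted p = 0.0498), and the median log2 fold change was 0.16. This share is near the 2.46% of all genes called in that comparison, and the count was 0 or 1 under several alternative settings. The mean and SD of Vav3 were 9.93 ± 0.13 for the 6 Ref mice, 10.74 ± 0.27 for the 6 HFoleic mice and 10.51 ± 0.31 for the 8 HFepa mice. Those of Lyn were 11.69 ± 0.18, 12.47 ± 0.26 and 12.20 ± 0.30. In HFepa vs. HFoleic none of the 70 was called, and the median was -0.13. Cd300lf and Gulp1, which were lower in the HFoleic group than in the Ref group, had 0.96 (adjusted p = 0.127) and 0.53 (adjusted p = 0.132) in this comparison.

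**Figure D5:**
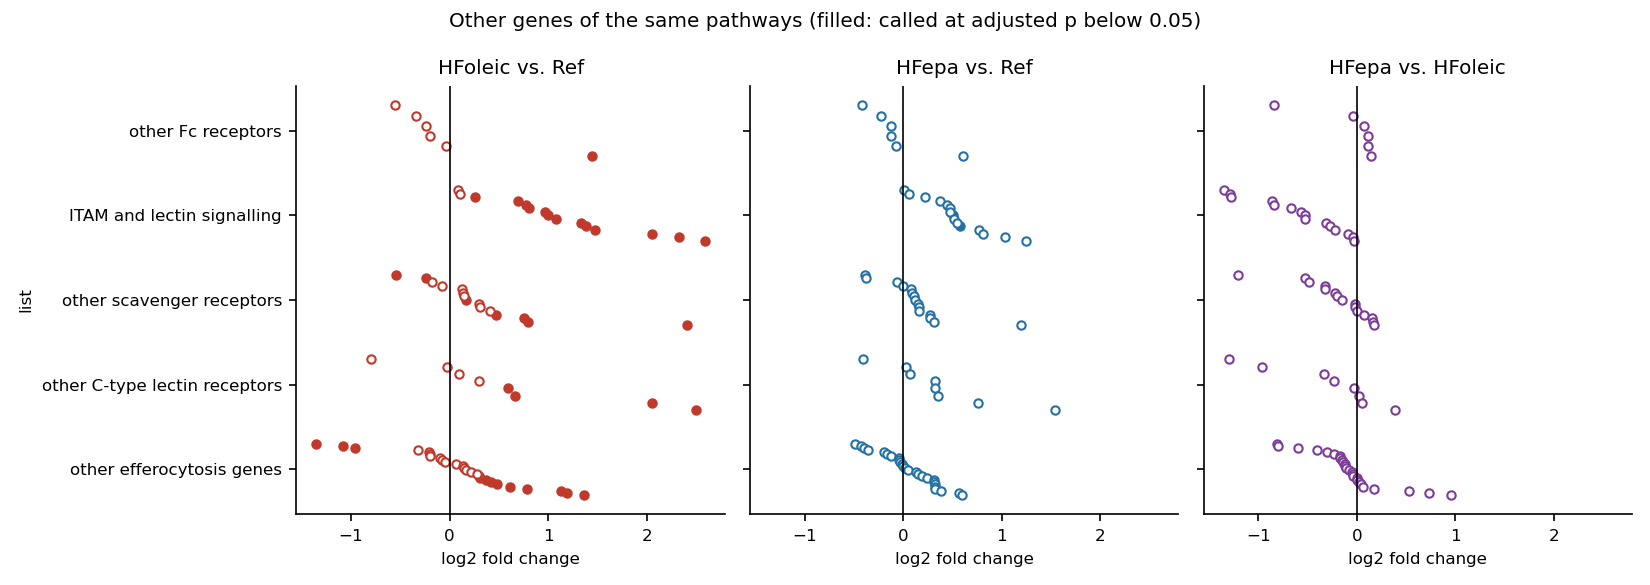
Log2 fold changes of the 70 other pathway genes by list in the 3 comparisons, 1 point per gene, filled where the adjusted p was below 0.05. In HFoleic vs. Ref, 13 of 15 points of the ITAM and lectin signalling list are filled and all 15 lie above 0, in HFepa vs. Ref 2 points are filled, and in HFepa vs. HFoleic none is.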

How the data were processed

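Spot files of 20 Agilent arrays were used. The authors extracted the deposited median intensity of each spot with Agilent Feature Extraction 10.10.1.1, on a linear scale and without background subtraction, and deposited a table of log2 values made by them with a filter and quantile normalization. That table served as an alternative.

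The files were read and fitted here with limma 3.58.1 under R 4.3.3. Control spots were dropped, and values flagged by the software as non-uniform or outlying became missing. Probes well above background on at least 6 arrays were kept (39,390 probes). Log2 median intensities were quantile normalized before repeated spots were averaged. One mean per group was fitted with lmFit to all arrays, followed by eBayes. Labels give the mice as separate samples. The number of mice limits the precision. Log2 changes of 1 were simulated in 200 of the 39,390 probes. They were recovered for 179 probes in HFoleic vs. Ref, 182 in HFepa vs. Ref and 181 in HFepa vs. HFoleic. This recovery does not give the chance that a difference in a given gene would be called. In HFepa vs. HFoleic, Fcgr1 at -1.01 (standard error 0.35) and Clec7a at -1.37 (standard error 0.42) were not called. A missing call in that comparison is therefore not evidence that a gene did not differ.

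The 10 genes and all lists were chosen with earlier results of these data known. Named were the 10 genes with every tested probe, the 3 genes with the smallest p in HFoleic vs. Ref in each pathway list, and pathway genes called in a comparison with the HFepa group. Other genes were named after their values were seen: the called or lowered genes of a short list and genes tied by role to the 10. The fits were repeated on the authors' table, on processed signal scaled to its 75th percentile, with normexp correction (offset 50), with median centring, with no filter or one over a whole group, with flagged spots, with slide or replicate blocks, with array weights, with robust eBayes and a trend, on compared groups alone, on probe means, and without each array. Promoter windows are those of RefSeq, and Msr1 has none here. Plots were drawn with matplotlib 3.10.9.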

Additional observations from a re-analysis of the deposited data

Results flagged for a closer look

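Of 30 groups of values (the 10 genes in 3 groups), 2 held a mouse whose gap to the nearest other mouse was large against the range of the group by Dixon's criterion. Chance gives such a gap in about 1 of 20 groups. Fcgr1 was at 7.57 in Ref mouse 5, and the next Ref mouse was at 7.05. Marco was at 9.14 in HFoleic mouse 1, and the next HFoleic mouse was at 9.65. Both mice were in all fits of the report, and without either of them the same 8 genes or more were called in HFoleic vs. Ref.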

How the results depend on the processing

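In HFoleic vs. Ref, 8 of the 10 genes were called in the reported fit and 7 to 9 over all alternatives, with Axl added by median centring, array weights and the mean of all probes, and Msr1 lost with the replicate number as a block (adjusted p = 0.0629). In HFepa vs. Ref the call of Mfge8 was lost, so that 0 of the 10 remained, with the processed signal, median centring, no filter on dim probes, and the slide or the replicate number as a block, at adjusted p values up to 0.126. In HFepa vs. HFoleic, array weights gave 5 calls (Fcgr1, Fcgr3, Fcer1g, Msr1 and Clec7a). The share of all genes called with array weights is not given here, and more of the pathway genes were called with them too. The cause of these changes was not tested.

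Of the 70 pathway genes, 2 were called in HFepa vs. Ref, but 1 with the processed signal, median centring, no filter, the slide as a block or the mean of all probes, and 0 with the replicate block or only the compared groups. In HFepa vs. HFoleic 1 was called with the slide as a block and 21 with array weights. The share of all genes called under these settings is not given here, so the counts cannot be set against it. Relative to the macrophage markers, HFoleic vs. Ref had 5 calls, but 3 with the replicate block, the robust trend or the mean of all probes, and 8 with array weights. HFepa vs. Ref had 1 with array weights, and HFepa vs. HFoleic, with 2 calls, had 0 with the replicate block, 6 with array weights and 1 with the robust trend or only the compared groups. The sign of Mertk in HFepa vs. Ref turned to 0.000568 with median centring and 0.019 with the replicate block.

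Over the 20 fits that omit 1 array each, the number of the 10 genes called was between 8 and 9 in HFoleic vs. Ref, between 0 and 1 in HFepa vs. Ref and between 0 and 5 in HFepa vs. HFoleic. For the pathway genes it was between 34 and 40, between 0 and 5, and between 0 and 16 (16 without HFepa mouse 1). Relative to the markers it was between 3 and 5, between 0 and 2, and between 0 and 6. No share of all genes called is given here for the fits that omit an array. Mertk in HFepa vs. Ref was between -0.0681 and 0.0234 in these fits, positive in 5 of them. Same-numbered mice of different groups correlated at -0.59 to 0.56 over 16 pairs (median -0.083), so the numbers were not taken to pair mice.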
